A study of Mus musculus with 12 samples.

Results

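Mex3a-positive and Mex3a-negative cells were compared within the Lgr5-positive cells of mouse colon adenomas, benign tumours of the colon epithelium. The comparison used the 3 arrays labelled Mex3A+ LGR5 + (Mex3a+ Lgr5+ here) and the 3 arrays labelled Mex3A- LGR5 + (Mex3a- Lgr5+ here), 6 of the 12 arrays of the series. The members were taken by these labels, and each Mex3a+ Lgr5+ array was paired with the Mex3a- Lgr5+ array of the same mouse. The other 6 arrays held Mex3a+ Lgr5- and Mex3a- Lgr5- cells of the same animals.

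The mice were MKL358, MKL347 and MKL367, and values below are given in that order. All 3 mice carried the genotype ki/+, whose allele is not explained in the sources used here, and so did the animals behind every group compared. Each array measured RNA of a pool of cells from several adenomas of a mouse, 500 cells for MKL358 and 2000 cells for MKL347 and MKL367. The labels do not state how Mex3a and Lgr5 were detected for the sort, or the age, sex and strain of the mice. Values are log2 robust multi-array average (RMA) signals, so a difference of 1 is a 2-fold difference in signal. In such pools, fewer cells of a type and less RNA per cell cannot be told apart.

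Lgr5 is a receptor for R-spondins that marks dividing stem cells of the crypt base, and its transcription depends on Wnt signalling. In the normal colon the descendants of these cells become absorptive colonocytes, which take up salt, water and short-chain fatty acids, and secretory cells such as mucus-making goblet cells. Mex3a is an RNA-binding protein with KH domains, known in the mouse intestine from a slowly dividing subset of Lgr5-positive cells. In adenomas Wnt signalling is usually switched on in the whole epithelium, and the cells of an adenoma can still differ in how far they have matured.

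The sort was first checked on its own markers. Mex3a read 6.86, 6.89 and 7.31 in Mex3a+ Lgr5+ cells, against 6.57, 6.29 and 6.47 in Mex3a- Lgr5+ cells. The groups did not overlap, and Mex3a was 1.5-fold higher (log2 difference 0.58 ± 0.14 SE, limma adjusted p = 0.00851). This call was lost in the fit without the mouse term (adjusted p = 0.0579), without MKL347 (0.0569), without MKL367 (0.075) and without the array of its Mex3a- Lgr5+ cells (0.055), and the other probe set of Mex3a differed by 0.12 (adjusted p = 0.492). Lgr5, by which both groups were selected, read 8.10, 8.53 and 8.50 in Mex3a+ Lgr5+ cells, against 8.05, 8.06 and 7.95 in Mex3a- Lgr5+ cells. Its log2 difference of 0.36 ± 0.15 SE did not pass (adjusted p = 0.108), while its other probe set differed by 0.46 (adjusted p = 0.0134). The epithelial adhesion gene Epcam read 11.55, 11.54 and 11.65 in Mex3a+ Lgr5+ cells, against 11.61, 11.71 and 11.74 in Mex3a- Lgr5+ cells, and its log2 difference was -0.10 (adjusted p = 0.109).

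Markers of other cell types were examined beside the epithelial ones. The mean signal of 27 fibroblast and smooth muscle genes was 5.84, 5.80 and 5.80 in Mex3a+ Lgr5+ cells, against 5.66, 5.61 and 6.38 in Mex3a- Lgr5+ cells. The Mex3a- Lgr5+ array of MKL367 stood apart in it: the collagen gene Col3a1 read 9.34 there and between 4.70 and 5.60 on the other 5 arrays. The mean signal of 15 neutrophil genes was 5.31, 5.11 and 5.11 in Mex3a+ Lgr5+ cells, against 6.04, 5.02 and 5.32 in Mex3a- Lgr5+ cells, highest on the Mex3a- Lgr5+ array of MKL358. Signals of 16 lymphocyte and plasma cell genes averaged between 4.32 and 4.44 in Mex3a+ Lgr5+ cells and between 4.33 and 4.39 in Mex3a- Lgr5+ cells. Mast cell genes, 10 in number, averaged 4.84 on the Mex3a+ Lgr5+ array of MKL367 and between 3.88 and 4.04 on the other 5 arrays. Macrophage and other myeloid genes, 23 in number, averaged 5.42, 5.59 and 5.49 in Mex3a+ Lgr5+ cells, against 5.59, 5.69 and 5.85 in Mex3a- Lgr5+ cells, lower in Mex3a+ cells of each mouse. Of 17 of these genes tested 3 fell, beside 13.2% of all genes tested. The falls included the protease gene Ctss (3.50-fold) and the lipopolysaccharide receptor gene Cd14 (log2 difference -0.94). On the same list 5 genes, among them the leukocyte gene Ptprc and the macrophage genes Adgre1 and Itgam, lay below 4.40, the level used to leave out dim genes, on all 6 arrays. The part of these cell types in the results was not tested.

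Across the 12595 genes tested, 2772 differed between Mex3a+ Lgr5+ and Mex3a- Lgr5+ cells at an adjusted p under 0.05 with mouse as a block, or 22.0%. Of these, 1114 were higher (8.84% of genes tested) and 1658 lower (13.2%) in Mex3a+ Lgr5+ cells, and 2761 had the same sign in all 3 mice. The largest changes were falls: 14 genes fell at least 8-fold and none rose that far, 40 genes fell and 10 rose at least 4-fold, and 201 fell and 163 rose at least 2-fold. The 15 largest falls among genes with a name other than a clone symbol, of at least 7-fold, included genes of mature colonocytes and goblet cells, and the 15 largest rises chosen likewise included the Wnt antagonist gene Apcdd1, metallothioneins, pancreatic lipase-related genes and albumin. Without the mouse term 404 genes were higher (3.21%) and 605 lower (4.8%), all of them called with it, 1396 genes were called without MKL347 and 1595 without MKL367. The first principal component of the 6 arrays held 61.6% of the variance and placed Mex3a+ Lgr5+ cells at -6.27, -27.8 and -29.7, against 30.9, 21.5 and 11.4 for Mex3a- Lgr5+ cells. The smaller pools of MKL358 were also those with the lowest scores on the second component, -20.5 for Mex3a+ Lgr5+ and -12.4 for Mex3a- Lgr5+ cells.

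**Figure D1:**
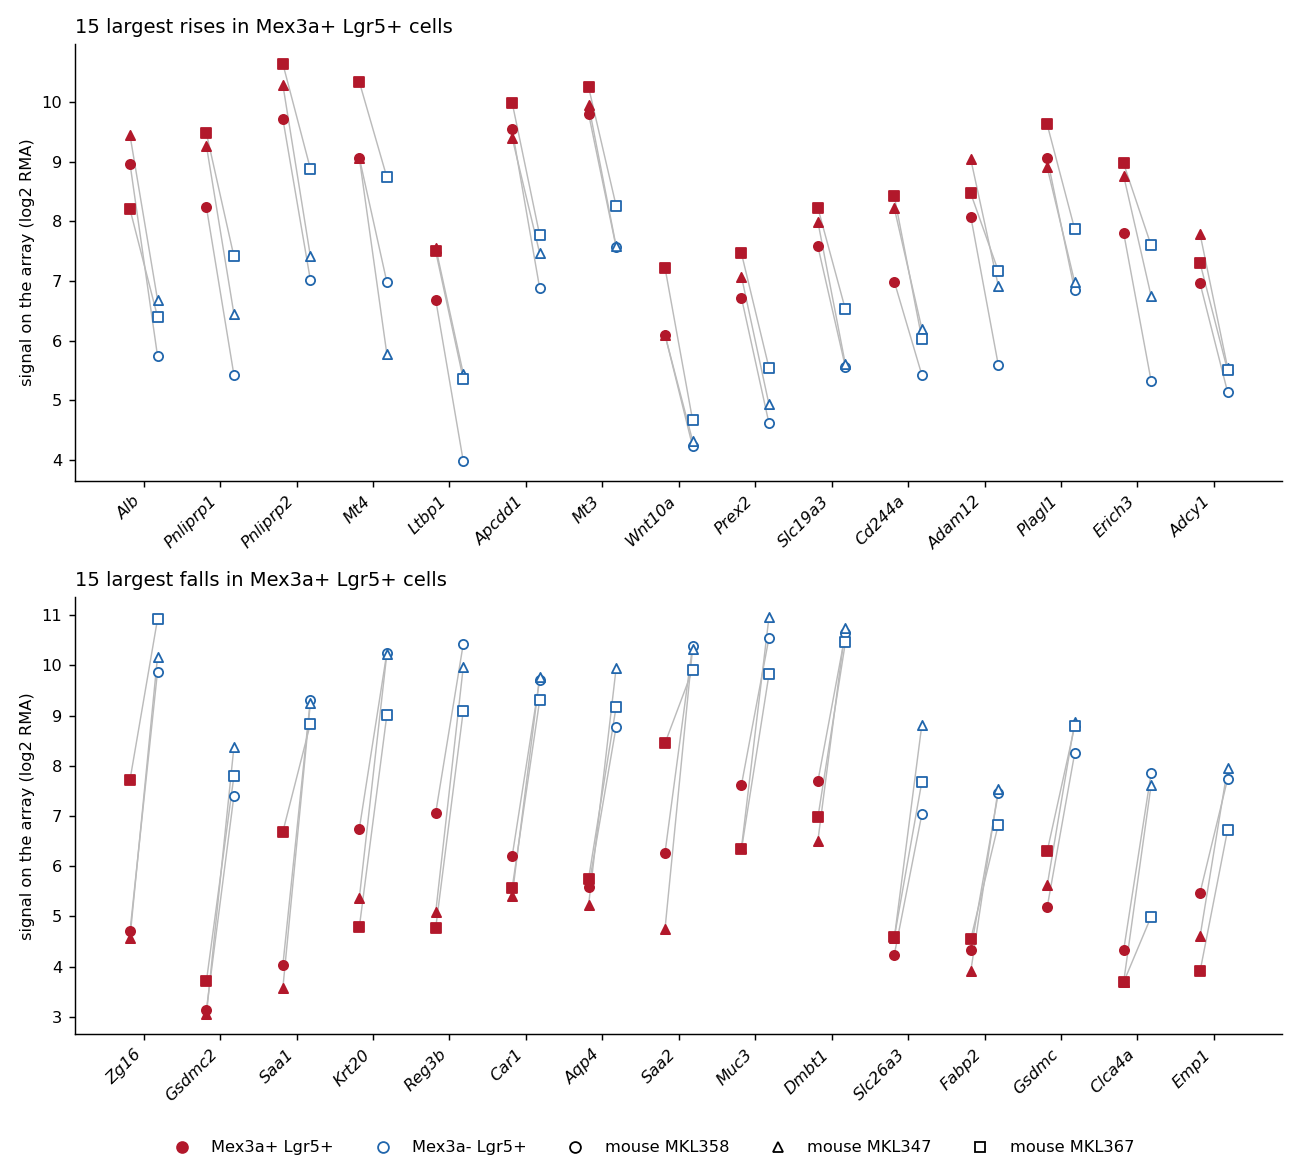
Signal (log2 RMA, vertical axis) of the 15 genes with the largest rises (upper panel) and the 15 with the largest falls (lower panel), clone symbols left out, on each of the 6 arrays, filled for Mex3a+ Lgr5+ and open for Mex3a- Lgr5+ cells, with a marker shape per mouse and a line joining the arrays of a mouse. None of the 30 genes has overlapping groups, which follows in part from their choice by size and sign. Zg16, Saa1 and Saa2 lie highest among the Mex3a+ Lgr5+ arrays in MKL367, at 7.72, 6.69 and 8.45.

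Colonocyte genes were broadly lower in Mex3a+ Lgr5+ cells. Of 29 tested genes on a list of colonocyte markers, 22 fell, 2 rose and 5 did not pass, and the median log2 difference was -1.17, beside -0.01 over all genes tested. Without the mouse term 20 fell and 0 rose, and 21 fell without the Mex3a- Lgr5+ array of MKL367. The mean signal of the 32 list genes on the array was 6.38, 6.11 and 6.11 in Mex3a+ Lgr5+ cells, against 7.56, 7.76 and 7.31 in Mex3a- Lgr5+ cells, so that the groups did not overlap.

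Krt20, a keratin of mature surface cells, read 6.74, 5.36 and 4.78 in Mex3a+ Lgr5+ cells, against 10.24, 10.22 and 9.0 in Mex3a- Lgr5+ cells. It fell 18.3-fold (log2 difference -4.19 ± 0.43 SE, adjusted p = 4.95e-05). Car1, a cytosolic carbonic anhydrase that serves colonic salt uptake, read 6.20, 5.41 and 5.56 in Mex3a+ Lgr5+ cells, against 9.72, 9.77 and 9.30 in Mex3a- Lgr5+ cells, and was 14.6-fold lower (log2 difference -3.87 ± 0.22 SE, adjusted p = 1.03e-06). Every Mex3a+ Lgr5+ array lay below every Mex3a- Lgr5+ array for both genes. Slc26a3, the chloride and bicarbonate exchanger of the colon surface, read 4.24, 4.57 and 4.59 in Mex3a+ Lgr5+ cells, against 7.04, 8.82 and 7.68 in Mex3a- Lgr5+ cells (10.4-fold lower, adjusted p = 1.62e-06). The intestinal fatty acid-binding protein gene Fabp2 was 8.06-fold lower and Emp1, a membrane protein of surface epithelium, 7.0-fold lower (adjusted p = 1.23e-05 and 7.81e-05).

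The colonocyte genes that fell covered several parts of the cell. Cdhr2 and Cdhr5, protocadherins that join the tips of microvilli, differed by -2.06 ± 0.23 and -1.69 ± 0.09 (log2, SE). Vil1, the actin-bundling villin of the brush border, differed by -0.96 ± 0.10. Ceacam20, an adhesion protein of the brush border, was 6.72-fold lower. Slc9a3, the apical sodium and proton exchanger, ran the other way: it read 6.67, 7.71 and 7.96 in Mex3a+ Lgr5+ cells, against 5.58, 6.64 and 6.69 in Mex3a- Lgr5+ cells. It rose in every mouse (log2 difference 1.14 ± 0.11 SE, adjusted p = 3.99e-05), but its groups overlapped across mice and the call needed the mouse term (adjusted p = 0.16 without it). The fatty acid-binding gene Fabp1 did not pass (log2 difference -0.00, adjusted p = 0.987).

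Goblet cell genes were lower as well. Of 23 tested goblet cell genes, 16 fell, none rose and 7 did not pass, with a median log2 difference of -0.81. The number that fell was 10 without the mouse term, 10 without MKL347 and 14 without the Mex3a- Lgr5+ array of MKL367. Zg16, a secreted lectin that binds gut bacteria, read 4.70, 4.58 and 7.72 in Mex3a+ Lgr5+ cells, against 9.87, 10.16 and 10.92 in Mex3a- Lgr5+ cells. It was 25.1-fold lower (log2 difference -4.65 ± 0.42 SE, adjusted p = 2.34e-05), and its second probe set differed by -3.40. Within this non-overlap, the Mex3a+ Lgr5+ array of MKL367 read about 3 log2 units above the other Mex3a+ Lgr5+ arrays. The kallikrein Klk1 was 4.76-fold lower, the potassium channel gene Kcnk6 2.42-fold lower and the mucin-glycosylating enzyme gene Galnt12 2.35-fold lower. Spdef, a transcription factor needed for goblet cell maturation, read 7.73, 6.92 and 6.64 in Mex3a+ Lgr5+ cells, against 8.19, 7.87 and 8.06 in Mex3a- Lgr5+ cells (log2 difference -0.94 ± 0.19 SE, adjusted p = 0.0031). The mucus genes Clca1 and Fcgbp, with log2 differences of -1.84 and -1.09, did not pass (adjusted p = 0.0593 and 0.0648).

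**Figure D2:**
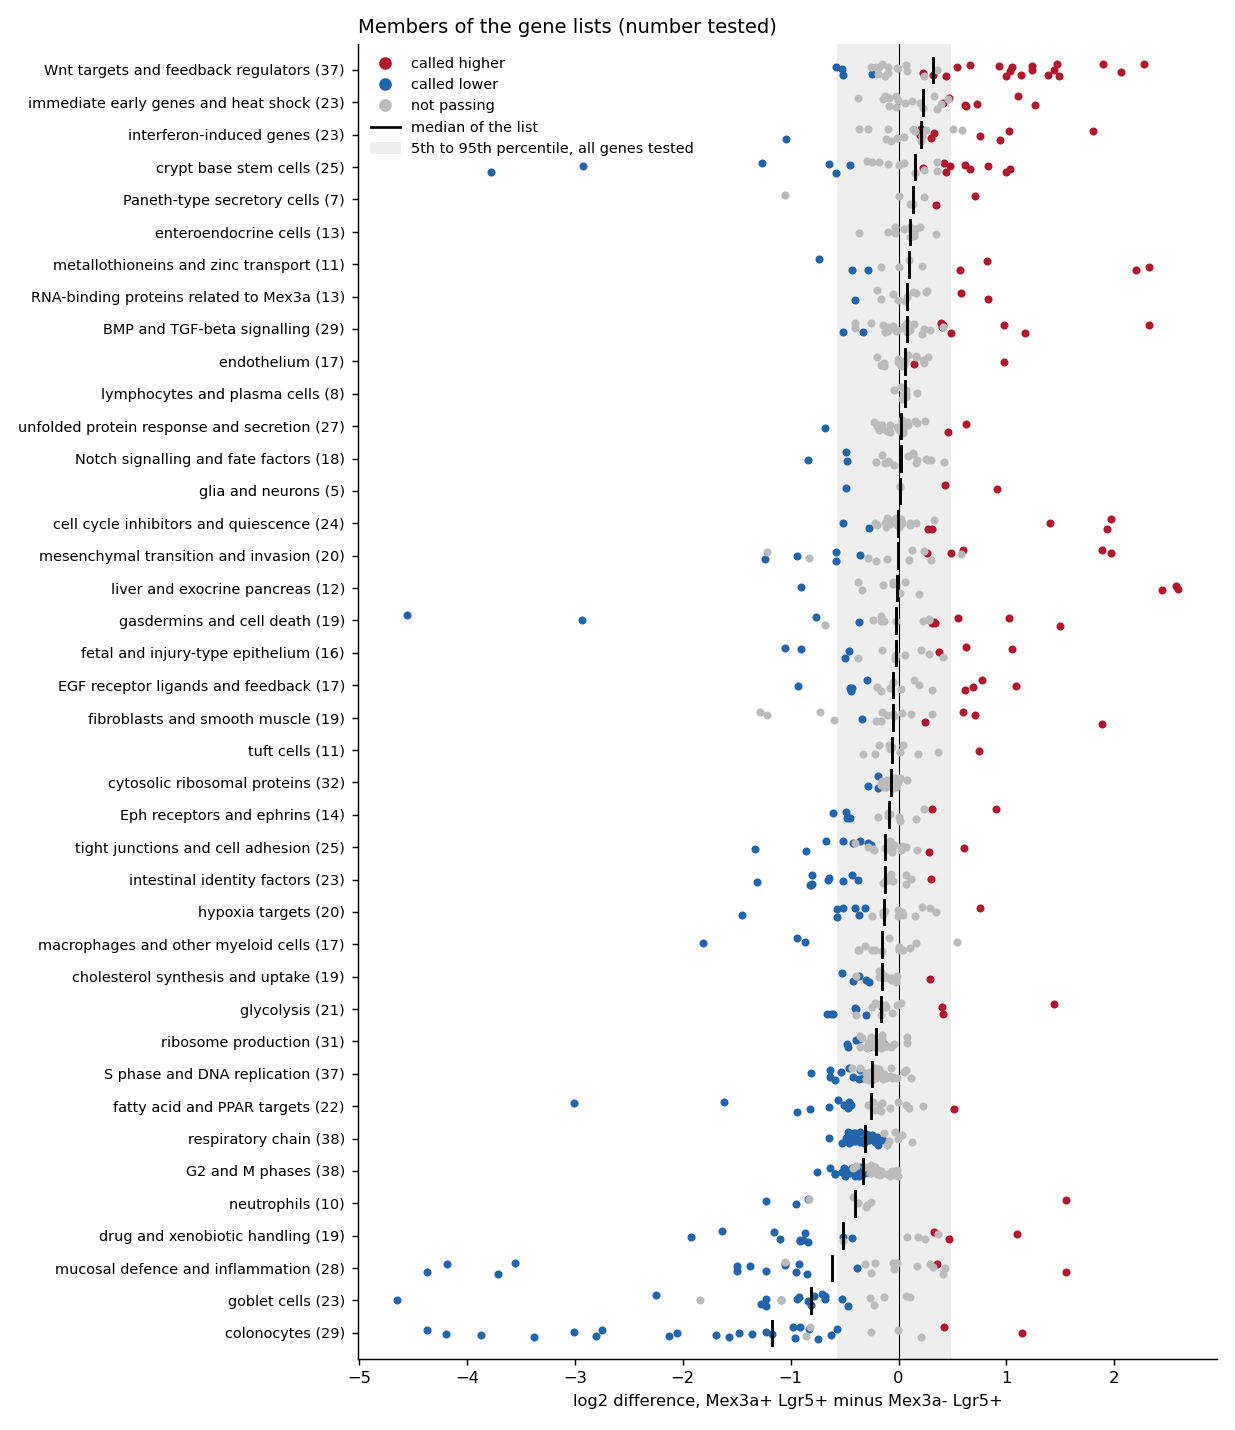
Log2 difference of Mex3a+ Lgr5+ minus Mex3a- Lgr5+ cells (horizontal axis) for every tested member of the gene lists with at least 5 tested members (rows, number tested in brackets). Points are red where called higher, blue where called lower and grey where not passing, the black bar is the median of the list, and the grey band spans -0.56 to 0.48, the 5th to the 95th percentile of all genes tested; colonocyte and goblet cell genes have the lowest medians and Wnt targets the highest.

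Mucosal defence genes included several of the largest falls and a rise. Of 28 tested members, 14 fell and 2 rose, with a median log2 difference of -0.61, and 7 fell and 1 rose without the mouse term. Neutrophil genes, which share some of these transcripts, had their highest mean on the Mex3a- Lgr5+ array of MKL358, and their part in these values was not tested. Reg3b, an antimicrobial lectin, read 7.07, 5.09 and 4.77 in Mex3a+ Lgr5+ cells, against 10.42, 9.96 and 9.09 in Mex3a- Lgr5+ cells (18.2-fold lower, log2 difference -4.18 ± 0.40 SE, adjusted p = 3.35e-05). Dmbt1, a mucosal scavenger receptor, read 7.69, 6.51 and 6.97 in Mex3a+ Lgr5+ cells, against 10.63, 10.75 and 10.46 in Mex3a- Lgr5+ cells (log2 difference -3.56 ± 0.19 SE, adjusted p = 5.73e-07). Both genes separated the groups on every array.

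The acute-phase gene Saa1 read 4.03, 3.57 and 6.69 in Mex3a+ Lgr5+ cells, against 9.31, 9.26 and 8.84 in Mex3a- Lgr5+ cells, a 20.7-fold fall (adjusted p = 0.00282). Saa2, whose start site lies 8.9 kb from that of Saa1 on chromosome 7 (GRCm38.p6), read 6.27, 4.75 and 8.45 in Mex3a+ Lgr5+ cells, against 10.38, 10.32 and 9.91 in Mex3a- Lgr5+ cells. Its log2 difference of -3.71 ± 0.93 SE passed (adjusted p = 0.0128), but not without MKL358 (0.0803), without MKL347 (0.132), or without the Mex3a+ Lgr5+ array of MKL358 (0.0574), that of MKL347 (0.0818) or the Mex3a- Lgr5+ array of MKL347 (0.0548), and its dimmer probe set differed by -0.12. In both genes the MKL367 pair differed least. Lcn2, which encodes the iron-scavenging lipocalin of inflamed epithelium and neutrophils, went up: 10.27, 10.93 and 10.45 in Mex3a+ Lgr5+ cells, against 8.41, 9.17 and 9.40 in Mex3a- Lgr5+ cells (log2 difference 1.55 ± 0.22 SE, 2.94-fold, adjusted p = 0.000406).

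The gasdermin C family, pore-forming proteins of the gut epithelium, fell too. Gsdmc2 read 3.15, 3.05 and 3.71 in Mex3a+ Lgr5+ cells, all below the level of 4.40, against 7.41, 8.38 and 7.80 in Mex3a- Lgr5+ cells (23.5-fold lower, adjusted p = 5.73e-07). Gsdmc read 5.18, 5.62 and 6.30 in Mex3a+ Lgr5+ cells, against 8.25, 8.87 and 8.79 in Mex3a- Lgr5+ cells (7.66-fold lower, adjusted p = 1.49e-05). Gene copies of this family are similar in sequence, and probes may read more than 1 of them. Another gasdermin, Gsdma, read 7.89, 8.16 and 8.95 in Mex3a+ Lgr5+ cells, against 6.42, 6.45 and 7.65 in Mex3a- Lgr5+ cells, and rose by 1.49 ± 0.12 (log2, SE, adjusted p = 1.19e-05, and 0.0547 without the mouse term). In the list of 19 gasdermin and cell death genes, 6 rose and 4 fell, with a median of -0.03, and 2 rose and 3 fell without the mouse term. The pro-apoptotic Bcl2l11 was 2.03-fold higher.

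Transcription factors of intestinal identity were lower in part. Of 23 tested, 10 fell and 1 rose, with a median log2 difference of -0.13, and 5 fell without the mouse term. Cdx1, a caudal-type homeobox factor, read 8.74, 7.86 and 7.70 in Mex3a+ Lgr5+ cells, against 9.54, 9.54 and 9.16 in Mex3a- Lgr5+ cells (log2 difference -1.31 ± 0.14 SE, adjusted p = 6.82e-05). Its relative Cdx2 differed by -0.80 ± 0.13 (adjusted p = 0.001, and 0.0702 without the mouse term). The nuclear receptors Nr1h4, Vdr and Hnf4a, which sense bile acids, vitamin D and fatty acids, differed by -0.82, -0.80 and -0.65, and Pparg by -0.82 (adjusted p = 0.108 without the mouse term for Pparg).

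The 250 bases before the start site of 2 of these falling genes are shown because they were the called-lower members of the colonocyte and goblet lists whose promoters held a Cdx core, searched as TTTATGG on both strands. Among other genes described above, Pparg, which fell, Lcn2, which rose, and Fabp1 and Epcam, which did not pass, held the core too. The sequences are those of RefSeq on GRCm38.p6, 5′ to 3′ on the strand of the gene, with the core in capitals. Emp1 lies at chr6:135367243-135367492 on the plus strand and Agr2, a disulphide isomerase of mucus-making cells, at chr12:35992675-35992924 on the plus strand.
Emp1: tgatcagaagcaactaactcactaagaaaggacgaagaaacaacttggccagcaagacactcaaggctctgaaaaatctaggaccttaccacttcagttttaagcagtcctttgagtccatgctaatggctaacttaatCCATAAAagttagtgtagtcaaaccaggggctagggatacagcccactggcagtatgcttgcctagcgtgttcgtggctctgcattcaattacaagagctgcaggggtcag
Agr2: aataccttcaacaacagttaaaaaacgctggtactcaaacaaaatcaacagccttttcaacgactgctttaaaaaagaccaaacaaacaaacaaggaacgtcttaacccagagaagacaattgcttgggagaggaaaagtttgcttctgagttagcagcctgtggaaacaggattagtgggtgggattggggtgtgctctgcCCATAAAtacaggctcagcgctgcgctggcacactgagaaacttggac
Agr2 read 9.68, 9.95 and 9.17 in Mex3a+ Lgr5+ cells, against 10.30, 10.50 and 10.42 in Mex3a- Lgr5+ cells (log2 difference -0.81 ± 0.13 SE, adjusted p = 0.000657). Of 22 colonocyte genes that fell, 19 had a promoter in the table and 1 matched, and of 16 goblet cell genes that fell, 8 had one and 1 matched. Over 300 bases, from 250 before to 50 after the start, the core was in 1.34% of the promoters of genes that rose, 2.05% of those of genes that fell, 4.02% of those of genes that fell at least 2-fold (8 of 199) and 1.89% of those of all genes tested.

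Wnt targets and feedback regulators were higher in Mex3a+ Lgr5+ cells. Of 37 tested, 19 rose, 4 fell and 14 did not pass, and the median log2 difference was 0.32. The counts were 13 up and 0 down without the mouse term, 15 up and 1 down without MKL347, and 16 up and 2 down without the Mex3a- Lgr5+ array of MKL367. The number down was also 2 without the Mex3a+ Lgr5+ array of MKL347 or of MKL367. The mean signal of the 39 list genes on the array was 7.58, 7.71 and 7.82 in Mex3a+ Lgr5+ cells, against 7.04, 7.19 and 7.39 in Mex3a- Lgr5+ cells, without overlap. Some of these genes were chosen for the list with their behaviour in these data known, so the direction of the list is not independent evidence.

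Several secreted and membrane regulators of the pathway rose, antagonists among them. Apcdd1, a membrane protein that binds Wnt ligands and blocks them, read 9.54, 9.40 and 9.99 in Mex3a+ Lgr5+ cells, against 6.88, 7.47 and 7.77 in Mex3a- Lgr5+ cells. It was 4.83-fold higher (log2 difference 2.27 ± 0.19 SE, adjusted p = 1.22e-05), without overlap between the groups. Wif1, a secreted Wnt inhibitor, read 9.03, 9.91 and 10.02 in Mex3a+ Lgr5+ cells, against 6.95, 8.52 and 9.08 in Mex3a- Lgr5+ cells (log2 difference 1.47 ± 0.22 SE, adjusted p = 0.000541). The groups overlapped across mice, and without the mouse term the adjusted p was 0.154. Dkk2 and Dkk3, of the Dickkopf family, were 2.71-fold and 2.80-fold higher (adjusted p = 8.62e-06 and 1.22e-05). Notum, an enzyme that strips the lipid from Wnt ligands, read 8.64, 9.13 and 9.47 in Mex3a+ Lgr5+ cells, against 7.18, 7.75 and 8.15 in Mex3a- Lgr5+ cells, a log2 difference of 1.39 ± 0.13 SE.

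Other members of the pathway varied in size and call. Wnt10a, a Wnt ligand, read 6.10, 6.09 and 7.22 in Mex3a+ Lgr5+ cells, against 4.23, 4.32 and 4.67 in Mex3a- Lgr5+ cells (4.17-fold higher, log2 difference 2.06 ± 0.16 SE, adjusted p = 6.26e-06). Lef1, a DNA-binding partner of beta-catenin, read 7.02, 7.68 and 7.67 in Mex3a+ Lgr5+ cells, against 4.59, 5.88 and 6.21 in Mex3a- Lgr5+ cells (3.72-fold higher, log2 difference 1.89 ± 0.19 SE, adjusted p = 4.47e-05). Axin2, the textbook transcriptional readout of the pathway and part of the complex that degrades beta-catenin, read 9.84, 9.73 and 10.02 in Mex3a+ Lgr5+ cells, against 9.18, 9.05 and 9.38 in Mex3a- Lgr5+ cells. Its log2 difference of 0.66 ± 0.07 SE was smaller than those of Apcdd1, Wif1 and Notum above (adjusted p = 3.81e-05), and the groups did not overlap. The growth-promoting target Myc, with a log2 difference of -0.21, did not pass (adjusted p = 0.139), and neither did the stem cell target Ascl2 (-0.18, adjusted p = 0.236) or Tcf7l2, another DNA-binding partner of beta-catenin (-0.13, adjusted p = 0.314).

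**Figure D3:**
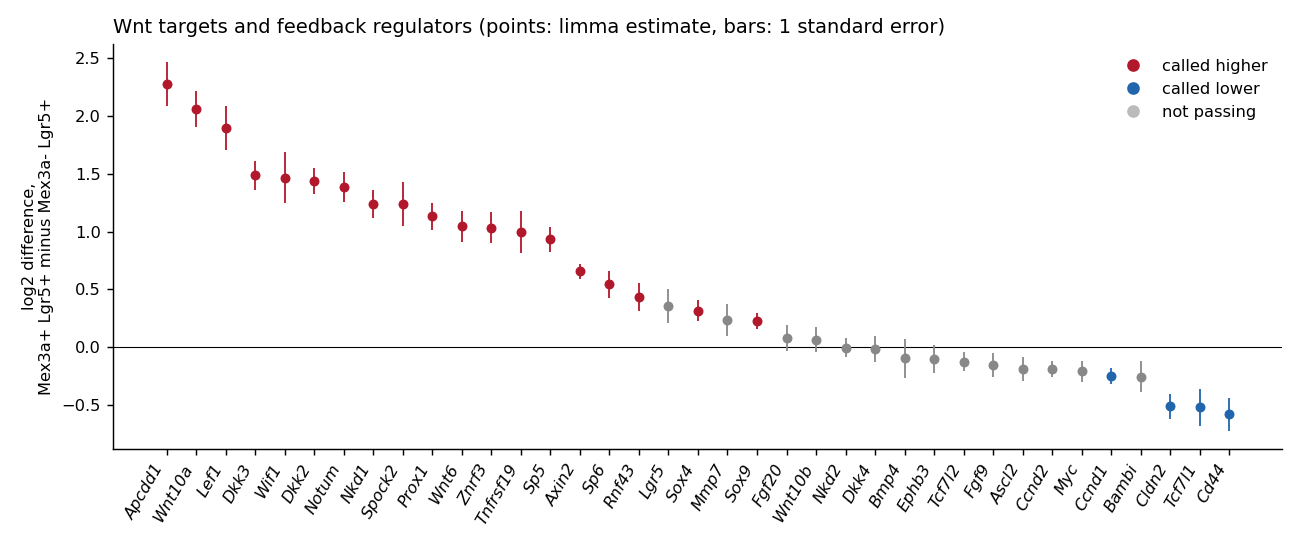
Log2 difference of Mex3a+ Lgr5+ minus Mex3a- Lgr5+ cells (vertical axis) for the 37 tested Wnt targets and feedback regulators, ordered by size; points are limma estimates and bars 1 standard error. The values run between 2.27 for Apcdd1 and -0.58 for Cd44, with red points called higher, blue points called lower and grey points not passing.

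Of the 19 Wnt list members that rose, 12 had a promoter in the RefSeq table and 2 of these held a TCF/LEF core, searched as CTTTGAT on both strands. They are shown with the core in capitals, 250 bases before the start, 5′ to 3′ on the strand of the gene. Sp5, a zinc-finger repressor induced by Wnt, lies at chr2:70474673-70474922 on the plus strand of GRCm38.p6, and Tnfrsf19, a receptor of the tumour necrosis factor family found on crypt base cells, at chr14:61037988-61038237 on the minus strand.
Sp5: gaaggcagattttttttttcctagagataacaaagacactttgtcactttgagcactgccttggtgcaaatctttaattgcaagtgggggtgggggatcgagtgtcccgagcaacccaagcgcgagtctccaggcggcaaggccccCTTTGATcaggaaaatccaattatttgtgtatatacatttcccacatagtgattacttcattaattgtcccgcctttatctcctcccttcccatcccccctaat
Tnfrsf19: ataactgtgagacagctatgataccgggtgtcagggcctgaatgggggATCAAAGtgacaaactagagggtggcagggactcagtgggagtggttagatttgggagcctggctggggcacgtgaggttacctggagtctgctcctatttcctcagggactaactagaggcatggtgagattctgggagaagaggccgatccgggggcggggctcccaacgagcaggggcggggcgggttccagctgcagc
Sp5 read 6.75, 6.97 and 7.81 in Mex3a+ Lgr5+ cells, against 5.84, 6.17 and 6.72 in Mex3a- Lgr5+ cells (log2 difference 0.93 ± 0.11 SE, adjusted p = 9.54e-05, and 0.18 without the mouse term). Tnfrsf19 read 8.53, 8.64 and 8.60 in Mex3a+ Lgr5+ cells, against 7.41, 7.62 and 7.75 in Mex3a- Lgr5+ cells (log2 difference 1.0 ± 0.18 SE, adjusted p = 0.00171). Over the 300-base windows, this core was in 3.87% of the promoters of genes that rose, 2.10% of those of genes that fell and 2.82% of those of all genes tested. It was in 3.73% of all promoters in the RefSeq table. Among other listed or named genes, Slc19a3, which rose, Car9 and Atoh1, which fell, and Mmp7, which did not pass, held the core too.

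Genes of crypt base stem cells did not move together. Of 25 tested, 9 rose, 6 fell and 10 did not pass, with a median log2 difference of 0.15, and 4 rose and 3 fell without the mouse term. The mean signal of the 30 list genes on the array was lower in Mex3a+ cells of each mouse, although the median difference was positive. This mean includes the large falls of Aqp4 and Clca4a given below, so it does not show a fall across the list. The mean was 7.50, 7.51 and 7.47 in Mex3a+ Lgr5+ cells, against 7.57, 7.66 and 7.60 in Mex3a- Lgr5+ cells. The number that rose was 5 without MKL367 or without its Mex3a- Lgr5+ array. Those that rose were partly the Wnt feedback genes above, among them Znrf3, a ubiquitin ligase that removes Wnt receptors, which was 2.05-fold higher (adjusted p = 0.000184). Msi1, an RNA-binding protein of stem and progenitor cells, read 7.82, 8.07 and 7.86 in Mex3a+ Lgr5+ cells, against 6.68, 7.28 and 7.31 in Mex3a- Lgr5+ cells (log2 difference 0.83 ± 0.11 SE, adjusted p = 0.000306). Aqp4, a water channel, read 5.58, 5.23 and 5.75 in Mex3a+ Lgr5+ cells, against 8.77, 9.94 and 9.17 in Mex3a- Lgr5+ cells. It was 13.7-fold lower (log2 difference -3.77 ± 0.28 SE, adjusted p = 4.34e-06). Clca4a, of the family of chloride channel regulators, read 4.33, 3.69 and 3.69 in Mex3a+ Lgr5+ cells, against 7.85, 7.62 and 5.0 in Mex3a- Lgr5+ cells, a difference of -2.92 that was smallest in MKL367. The tetraspanin Tspan8 fell by 1.27 on the log2 scale. The stem cell marker Olfm4 lay below the level of 4.40 on all 6 arrays.

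Metallothioneins, small proteins that bind zinc and copper, were split. Mt4 read 9.07, 9.07 and 10.34 in Mex3a+ Lgr5+ cells, against 6.99, 5.78 and 8.74 in Mex3a- Lgr5+ cells (5.0-fold higher, adjusted p = 0.000133, and 0.0907 without the mouse term). Mt3, known for its abundance in brain, read 9.80, 9.95 and 10.25 in Mex3a+ Lgr5+ cells, against 7.57, 7.59 and 8.26 in Mex3a- Lgr5+ cells (4.58-fold higher, log2 difference 2.20 ± 0.18 SE, adjusted p = 1.1e-05). The broadly used Mt1 read 10.58, 10.54 and 10.30 in Mex3a+ Lgr5+ cells, against 10.57, 10.01 and 10.18 in Mex3a- Lgr5+ cells, and did not pass (log2 difference 0.22, adjusted p = 0.0928). The start sites of the 3 genes lie within 41.9 kb of each other on chromosome 8 in the order Mt4, Mt3, Mt1, 15.4 kb apart for the first pair and 26.5 kb for the second. Of 11 tested genes of metallothioneins and zinc transport, 4 rose and 3 fell, with a median of 0.10, and the zinc exporter gene Slc30a2 was among the rises (log2 difference 0.82 ± 0.10 SE) and the importer gene Slc39a5 among the falls (-0.74 ± 0.11 SE). Without the mouse term 3 rose and 1 fell, and 1 fell without MKL367, without its Mex3a- Lgr5+ array or without the Mex3a+ Lgr5+ array of MKL358.

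The promoters of Mt4, which rose, and Mt1, which did not pass, are shown side by side, each on the plus strand of GRCm38.p6, at chr8:94136954-94137203 and chr8:94178839-94179088. Capitals mark a metal response core, searched as TGCACNC on both strands.
Mt4: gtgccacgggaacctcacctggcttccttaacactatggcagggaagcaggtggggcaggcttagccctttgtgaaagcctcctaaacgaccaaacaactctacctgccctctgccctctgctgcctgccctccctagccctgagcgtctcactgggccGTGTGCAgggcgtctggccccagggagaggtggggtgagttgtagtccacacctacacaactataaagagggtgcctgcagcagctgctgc
Mt1: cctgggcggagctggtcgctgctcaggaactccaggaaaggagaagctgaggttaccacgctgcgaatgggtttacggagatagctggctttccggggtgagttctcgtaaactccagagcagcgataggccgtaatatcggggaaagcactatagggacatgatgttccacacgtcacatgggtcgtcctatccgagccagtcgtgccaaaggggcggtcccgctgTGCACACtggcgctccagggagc
Each 250-base window held 1 match to these letters, and Mt1 had 1 more in the 50 bases after its start. Other spellings of the metal response element were not searched, so these matches do not count the elements of either gene. The core was in 13.8% of the promoters of genes that rose, 12.7% of those of genes that fell and 13.0% of those of all genes tested.

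The largest rises belonged to genes better known from liver and pancreas. Alb, serum albumin, read 8.97, 9.44 and 8.20 in Mex3a+ Lgr5+ cells, against 5.74, 6.69 and 6.40 in Mex3a- Lgr5+ cells. It was 6.03-fold higher (log2 difference 2.59 ± 0.37 SE, adjusted p = 0.000362). Pnliprp1, a pancreatic lipase-related protein gene, read 8.24, 9.27 and 9.48 in Mex3a+ Lgr5+ cells, against 5.42, 6.45 and 7.41 in Mex3a- Lgr5+ cells (5.93-fold higher, adjusted p = 0.000364). Its relative Pnliprp2, which starts 30.8 kb away on chromosome 19, read 9.72, 10.29 and 10.64 in Mex3a+ Lgr5+ cells, against 7.02, 7.42 and 8.88 in Mex3a- Lgr5+ cells (5.45-fold higher, adjusted p = 3.08e-05). All 3 genes separated the groups. The rest of the list of 21 liver and exocrine pancreas genes on the array did not follow them: 9 lay below the level of 4.40 on all 6 arrays, among them the fibrinogen genes Fga and Fgb and the digestive enzyme genes Cel, Cpb1 and Amy2a5. Of the 12 tested, 3 rose, 8 did not pass, among them the apolipoprotein genes Apoa1 and Apoa2 (-0.15 and 0.01) and the pancreatic enzyme genes Prss2 and Cpa1 (-0.06 and 0.06), and the thyroxine carrier Ttr fell (-0.90, adjusted p = 0.00638, but 0.0564 without MKL367 and 0.057 without the mouse term). The mean of the 21 genes was 5.57, 5.58 and 5.55 in Mex3a+ Lgr5+ cells, against 5.23, 5.24 and 5.32 in Mex3a- Lgr5+ cells.

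The list of cell cycle inhibitors and quiescence genes held a few large rises. Plagl1, an imprinted zinc-finger factor that restrains growth, read 9.06, 8.90 and 9.62 in Mex3a+ Lgr5+ cells, against 6.84, 6.98 and 7.87 in Mex3a- Lgr5+ cells (3.91-fold higher, log2 difference 1.97 ± 0.13 SE, adjusted p = 1.85e-06). Cdkn1c, the imprinted inhibitor of cyclin-dependent kinases also called p57, read 9.05, 10.13 and 9.77 in Mex3a+ Lgr5+ cells, against 7.70, 7.69 and 7.76 in Mex3a- Lgr5+ cells (3.83-fold higher, adjusted p = 1.22e-05). Peg3, an imprinted zinc-finger gene, read 4.33, 5.99 and 4.96 in Mex3a+ Lgr5+ cells, against 3.62, 3.68 and 3.77 in Mex3a- Lgr5+ cells, where every array lay below the level of 4.40 (log2 difference 1.40 ± 0.25 SE, adjusted p = 0.00155). The other inhibitors mostly did not pass: of 24 tested genes on the list, 5 rose and 2 fell, with a median of -0.00, and 3 rose and 1 fell without the mouse term or without MKL347, and 3 rose without MKL367. Txnip was among the falls, with a log2 difference of -0.52.

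Part of the genes of the dividing cell fell, by small amounts, while most did not pass. Of 38 genes of the G2 and M phases, 18 fell, none rose and 20 did not pass, with a median log2 difference of -0.33. The number that fell was 9 without the mouse term, 11 without MKL367 or without the Mex3a+ Lgr5+ array of MKL358, and 13 without the Mex3a- Lgr5+ array of MKL367. Mki67, the proliferation marker, read 8.16, 8.53 and 8.38 in Mex3a+ Lgr5+ cells, against 8.98, 9.01 and 8.84 in Mex3a- Lgr5+ cells (1.5-fold lower, log2 difference -0.59 ± 0.09 SE, adjusted p = 0.00076). The groups did not overlap. The centromere protein gene Cenpa and the cyclin gene Ccnb2 differed by -0.63 and -0.59, and Kif23, a motor of cytokinesis, by -0.76 (adjusted p = 0.0133, and between 0.0582 and 0.0821 without MKL347, without the Mex3a+ Lgr5+ array of MKL358 or MKL347, or without the Mex3a- Lgr5+ array of MKL367). Top2a, the topoisomerase of dividing cells, did not pass (-0.17, adjusted p = 0.303). Of 37 genes of S phase and DNA replication, 11 fell, with a median of -0.24, but 4 without the mouse term, 2 without MKL347, 4 without MKL367, 3 without the Mex3a+ Lgr5+ array of MKL347, 5 without the Mex3a- Lgr5+ array of MKL358 and 7 without that of MKL367. The polymerase subunit gene Pold2 and the thymidine kinase gene Tk1 differed by -0.81 and -0.64.

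Subunits of the mitochondrial respiratory chain were lower by a narrow margin in most cases. Of 38 tested, 31 fell, none rose and 7 did not pass, with a median log2 difference of -0.31, and 19 fell without the mouse term. The mean signal of the 38 genes was 9.73, 9.68 and 9.66 in Mex3a+ Lgr5+ cells, against 10.03, 9.97 and 9.95 in Mex3a- Lgr5+ cells. The complex I subunit gene Ndufa9 read 9.20, 9.25 and 9.12 in Mex3a+ Lgr5+ cells, against 9.75, 9.73 and 9.68 in Mex3a- Lgr5+ cells (log2 difference -0.53 ± 0.07 SE, adjusted p = 0.000156). Sdhd, of complex II, and Ndufa8, of complex I, differed by -0.64 and -0.48. The counts without MKL347 and without MKL367 were 23 each, and quantile normalization gave 28 lower and 1 higher. Among cytosolic ribosomal proteins 3 of 32 fell, with a median of -0.07, and 0 of 32 were called without the mouse term or without MKL367.

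**Figure D4:**
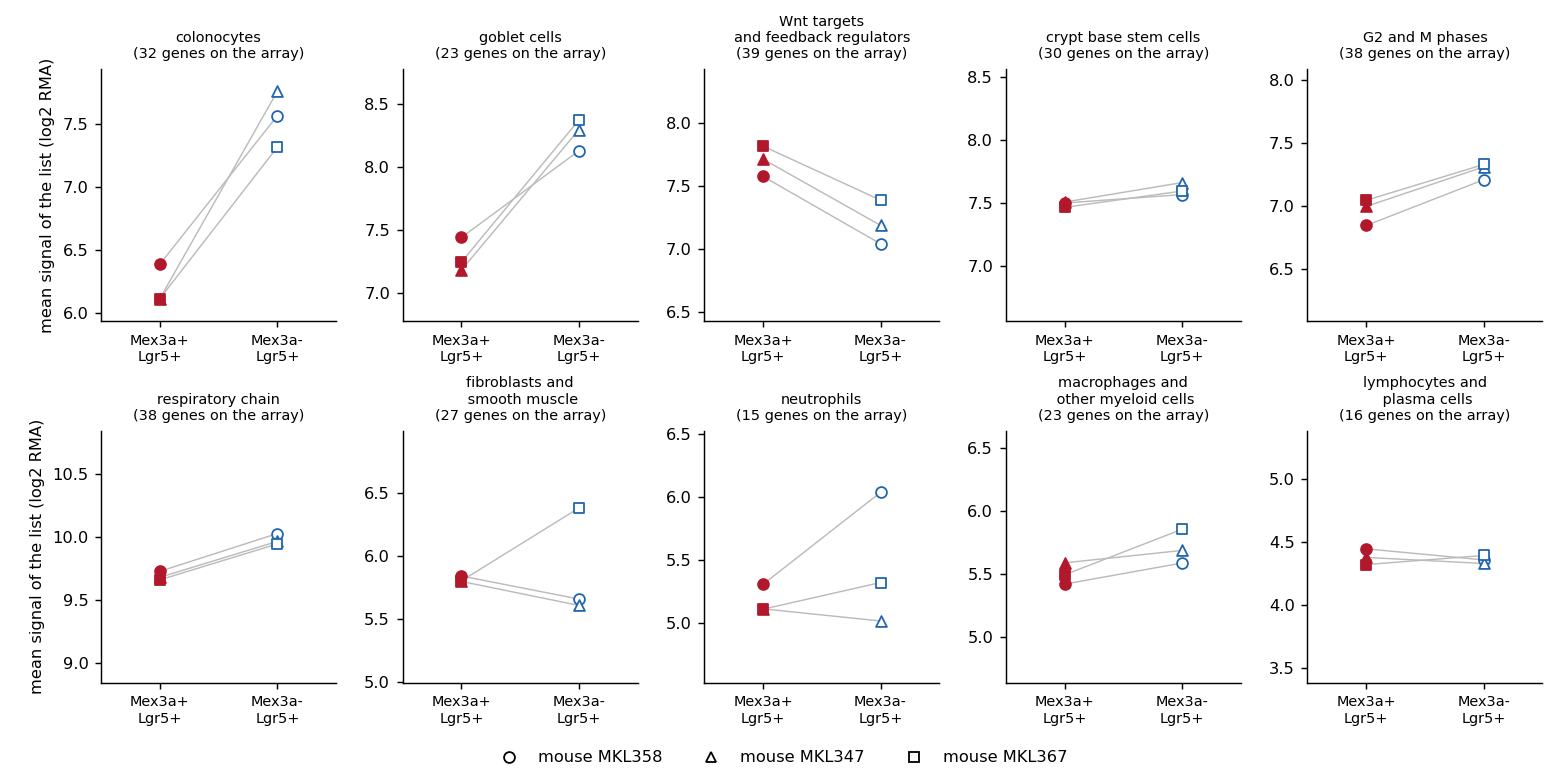
Mean signal (log2 RMA, vertical axis, each panel spanning 2 log2 units) of 10 gene lists on the Mex3a+ Lgr5+ arrays (left, filled) and the Mex3a- Lgr5+ arrays (right, open), with a marker shape per mouse and a line joining the arrays of a mouse. Colonocyte, goblet cell, Wnt, crypt base stem cell, G2 and M phase and respiratory chain genes separate the groups, the crypt base stem cell genes by a narrow margin. The crypt base stem cell mean includes the large falls of Aqp4 and Clca4a. The fibroblast mean of 6.38 in MKL367 and the neutrophil mean of 6.04 in MKL358 stand above the other Mex3a- Lgr5+ arrays.

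Several further large rises fell outside these groups. Vim, the intermediate filament protein of mesenchymal cells, read 10.34, 11.33 and 11.05 in Mex3a+ Lgr5+ cells, against 8.20, 9.47 and 9.41 in Mex3a- Lgr5+ cells (3.69-fold higher, log2 difference 1.88 ± 0.14 SE, adjusted p = 6.96e-06), and its other probe sets gave 1.94 and 1.98. Adam12, a membrane metalloprotease, read 8.08, 9.04 and 8.47 in Mex3a+ Lgr5+ cells, against 5.59, 6.92 and 7.17 in Mex3a- Lgr5+ cells (log2 difference 1.97 ± 0.25 SE, adjusted p = 0.0002). The transcription factors Zeb1, Zeb2, Snai1, Snai2 and Twist1, which drive mesenchymal transition, lay below the level of 4.40 on all 6 arrays. Of 20 tested genes of mesenchymal transition and invasion, 5 rose and 5 fell, with a median of -0.01, and the adhesion molecule gene L1cam and the integrin gene Itgb6 were among the falls (-1.24 and -0.95). Without the mouse term 3 rose and 2 fell, and the fits without a mouse or an array gave between 2 and 5 rises and between 3 and 6 falls, with 2 rises without the Mex3a+ Lgr5+ array of MKL347 and 3 falls without MKL347 or MKL367. On the fibroblast list, Vim rose with 3 others of 19 tested and 1 fell (1 rose without the mouse term, and 2 without MKL358, without MKL347 or without any of their 4 arrays), while Col1a1, Col3a1 and Sparc, with log2 differences of -0.60, -1.28 and -1.22, did not pass.

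Ltbp1, a protein that holds latent TGF-beta in the matrix, read 6.68, 7.56 and 7.49 in Mex3a+ Lgr5+ cells, against 3.98, 5.45 and 5.36 in Mex3a- Lgr5+ cells (4.98-fold higher, adjusted p = 8.48e-05). Prex2, an activator of the small GTPase Rac, read 6.72, 7.07 and 7.46 in Mex3a+ Lgr5+ cells, against 4.61, 4.93 and 5.54 in Mex3a- Lgr5+ cells (log2 difference 2.06 ± 0.11 SE). Slc19a3, a thiamine transporter, read 7.58, 7.99 and 8.22 in Mex3a+ Lgr5+ cells, against 5.56, 5.60 and 6.52 in Mex3a- Lgr5+ cells (log2 difference 2.04 ± 0.24 SE). None of these genes had overlapping groups. Adcy1, an adenylyl cyclase, Cd244a, an immune receptor gene, and Erich3 rose by 1.96, 1.99 and 1.96 on the log2 scale (adjusted p = 0.0827 without the mouse term for Erich3). Muc3, a membrane mucin, had a log2 difference of -3.67 and was also among the 15 falls.

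The 15 rises and 15 falls were then set beside the Mex3a difference in Lgr5- cells of the same mice. All 15 rises and all 15 falls were also called in Lgr5- cells, with log2 differences between 1.5 and 2.74 for the rises and between -5.73 and -2.46 for the falls, and none of their interaction terms passed (smallest adjusted p = 0.383 among the rises and 0.351 among the falls). Over all genes tested, 0 had an interaction of Mex3a with Lgr5 status at an adjusted p under 0.05 in limma (0.0%), 1078 had an unadjusted p under 0.05, and the median SE of the interaction was 0.14. In Lgr5- cells 4021 genes were called, and 2222 genes were called with the same sign in both kinds of cell, 80.2% of the Lgr5+ calls and 55.3% of the Lgr5- calls. These comparisons used different arrays but the same mice, and a missed threshold does not show that the effects were alike.

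The smallest interaction p belonged to Ggh, a lysosomal gamma-glutamyl hydrolase. Ggh read 4.57, 4.71 and 4.25 in Mex3a+ Lgr5+ cells, against 4.80, 5.08 and 4.89 in Mex3a- Lgr5+ cells, a log2 difference of -0.41, while it was -1.50 in Lgr5- cells (difference of differences 1.08 ± 0.14 SE, adjusted p = 0.088). Sycn, Ociad2 and B3gnt7 had differences nearer to 0 in Lgr5+ cells (-0.99, -0.21 and -1.45) than in Lgr5- cells (-2.21, -1.08 and -2.49), and Rnf157 had 0.23 in Lgr5+ cells and 1.40 in Lgr5- cells, with adjusted p between 0.102 and 0.103. None of these 5 interactions passed. Mex3a itself differed by 0.58 in Lgr5+ cells and 0.79 in Lgr5- cells (interaction adjusted p = 0.817), and Lgr5 by 0.36 in Lgr5+ cells and 1.27 in Lgr5- cells (interaction adjusted p = 0.351). The guanylate-binding protein gene Gbp7 was the sole gene called in opposite directions, with 0.40 in Lgr5+ cells and -0.39 in Lgr5- cells (adjusted p = 0.0481 and 0.0411, interaction adjusted p = 0.351), and was singled out after its values were seen.

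**Figure D5:**
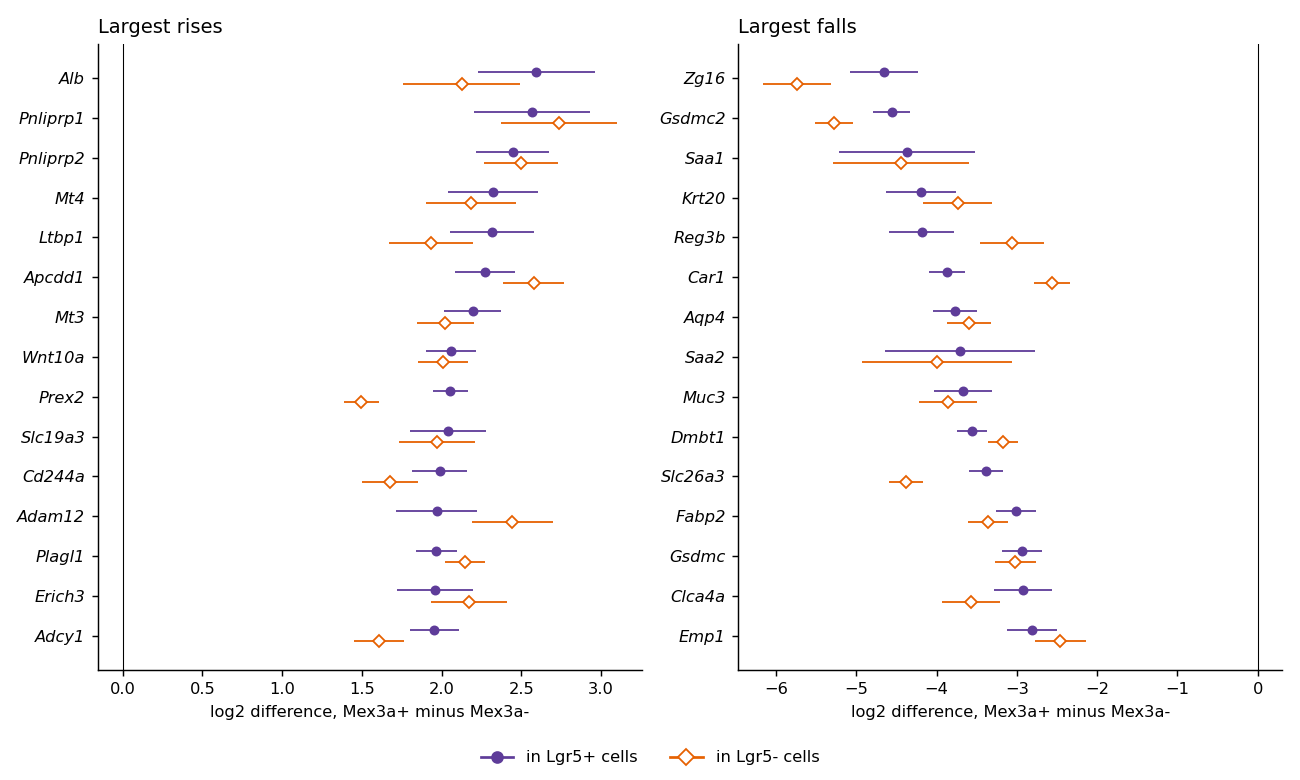
Log2 difference of Mex3a+ minus Mex3a- cells (horizontal axis) for the 15 genes with the largest rises (left panel) and the 15 with the largest falls (right panel), clone symbols left out, in Lgr5+ cells (filled circles) and in Lgr5- cells (open diamonds); points are limma estimates and bars 1 standard error. Each gene lies on the same side of 0 in both kinds of cell, with rises in Lgr5- cells between 1.5 and 2.74 and falls between -5.73 and -2.46.

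The array also held 16139 probe sets without a single gene symbol. Of these 8482 passed the filter on dim signals, and 1308 differed between Mex3a+ Lgr5+ and Mex3a- Lgr5+ cells (15.4%), 696 higher and 612 lower.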

How the data were processed

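Signals were measured on 12 single-colour expression arrays, after whole-transcriptome amplification of the RNA of the sorted pools per the labels' protocols. The values are log2 RMA signals as deposited, and RMA is named in the submitters' processing notes; the sources used here do not state its options. Probe sets were named from the platform annotation: 28898 of 45141 had 1 gene symbol, 551 several and 15588 none, and 104 were controls. The brightest probe set stood for each of 17097 genes. Genes reaching 4.40, the 40th percentile of all values, on at least 3 arrays were tested (12595).

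One limma model (version 3.58.1, lmFit and eBayes with an intensity trend, R 4.3.3) was fitted to all 12 arrays with 4 groups and mouse as a block, with Benjamini-Hochberg adjustment over all genes tested. The model was also run on simulated data with known changes in the Mex3a+ Lgr5+ group alone, whose outcome is not given here. The labels give the same mouse numbers in every group, and residuals of same-mouse arrays correlated between 0.349 and 0.694 (18 pairs), against between -0.691 and 0.152 for other pairs (48). Each p-value sets the size of a group difference against the spread left among the 3 mice, after the mouse term took out their levels. This spread was estimated from all 12 arrays and moderated across genes by eBayes, and the number of mice limits the precision. No arrays were duplicates.

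Named genes are the 15 largest rises and 15 largest falls with 1 sign in all 3 mice (clone and gene model symbols left out), the 5 smallest interaction p-values, up to 6 called members per list by size, and textbook markers; those named for a promoter match were chosen after the search. The genes examined and the 42 gene lists (800 genes tested) were chosen with earlier results of these data known. In genes chosen by size, groups without overlap follow in part from that choice, and the share of all genes tested without overlap is not given here. Promoter sequences, from 250 bases before to 50 after the start, are those of RefSeq on GRCm38.p6, matched by gene identifier for 10079 tested genes.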

Additional observations from a re-analysis of the deposited data

Results flagged for a closer look

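Signal outside the genes examined came from probe sets that could not be assigned to a single gene symbol. Of 16139 such probe sets, 8482 passed the filter on dim signals, and 1308 differed between Mex3a+ Lgr5+ and Mex3a- Lgr5+ cells at an adjusted p under 0.05 in limma (15.4%), 696 higher and 612 lower in Mex3a+ Lgr5+ cells. They were set apart because no comparison of named genes used them, and their identity was not examined.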

How the results depend on the processing

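The fit without the replicate block called 1009 genes in place of 2772, all of them also called with the pairing by mouse. The test of every probe set with a single symbol called 4210 of 19883 probe sets, beside 2772 of 12595 genes. Leaving out a mouse or an array gave between 1396 (without MKL347) and 2458 (without MKL358) calls; without MKL367 there were 1595. The other alternatives gave between 2437 (mouse as a random effect) and 3312 (array weights). The share of calls that were lower was 59.8%, 53.1% with quantile normalization and 66.4% with median centring. The interaction had 0 calls under every alternative that kept all 12 arrays, and between 0 and 3 when a mouse or an array was left out. The cause of these changes was not tested. Saa2, Mt4 and Erich3 were the only ones of the 30 genes with the largest changes to lose their call under any alternative. Lgr5 passed under quantile normalization (adjusted p = 0.0449), with the mean of its probe sets (0.0117) and without the Mex3a- Lgr5+ array of MKL358 (0.0478). Genes with signals below 4.40 in a group, such as Gsdmc2 in Mex3a+ Lgr5+ cells, may be limited there by the background of the array. This was not tested, and the RMA options are unknown.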

Other observations

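Among 6 further lists of metabolic, transport and growth genes, that of drug and xenobiotic handling had the highest share of members lower in Mex3a+ Lgr5+ cells, and in the other lists no more members were called than did not pass (13.2% of all genes tested were lower and 8.84% higher). Of 19 tested genes of drug and xenobiotic handling, 11 fell and 3 rose, with a median log2 difference of -0.52, and 7 fell and 0 rose without the mouse term (1 rose without MKL347). The sulphotransferase gene Sult1b1 differed by -1.92 ± 0.19 SE, the efflux pump genes Abcc3 and Abcb1a by -1.64 and -1.10 and the cytochrome gene Cyp4f14 by -1.16, while the pump gene Abcc2 was at 1.10 (adjusted p = 0.00295, and 0.129 without the mouse term). Of 22 fatty acid and PPAR genes 10 fell and 1 rose (4 and 1 without the mouse term), among them the coactivator gene Ppargc1b (-1.62) and the triglyceride synthesis gene Dgat2 (-0.94). Of 21 glycolysis genes 7 fell and 3 rose, 5 and 1 without the mouse term, and 1 rose without MKL358, without MKL347 or without any of their 4 arrays, while 4 fell without MKL347. The aldolase gene Aldoc read 8.20, 8.78 and 8.68 in Mex3a+ Lgr5+ cells, against 7.14, 7.16 and 7.05 in Mex3a- Lgr5+ cells (2.71-fold higher, adjusted p = 5.53e-05), while the hexokinase genes Hk1 and Hk2 differed by -0.66 (adjusted p = 0.059 without MKL347) and -0.62. Of 19 cholesterol genes 5 fell and 1 rose (2 and 0 without the mouse term or without MKL347), led by the epoxidase gene Sqle (-0.53). Of 31 ribosome production genes 8 fell, led by Dkc1 (-0.47), but 2 did without the mouse term, between 1 and 11 without a mouse or an array (1 without MKL347, 2 without MKL367) and 13 with median centring. Of 20 hypoxia targets 7 fell, led by the carbonic anhydrase gene Car9 (-1.45), and Bnip3 rose (0.76). These hypoxia falls were 3 without the mouse term or without MKL347, 4 without MKL367 or its Mex3a+ Lgr5+ array, and quantile normalization gave 5 lower and 3 higher.

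Lists of stress and signalling genes held calls in both directions, many of which needed the mouse term. The share called over all genes tested was 22.0%, and the Notch list (3 of 18), the unfolded protein response list (3 of 27) and the RNA-binding protein list (3 of 13) lay near or below it. Of 23 immediate early and heat shock genes 7 rose and 0 fell, 2 without the mouse term. Atf3, a stress-induced transcription factor, read 11.08, 10.89 and 10.94 in Mex3a+ Lgr5+ cells, against 10.31, 9.95 and 9.32 in Mex3a- Lgr5+ cells (2.16-fold higher, adjusted p = 9.15e-05), Jun differed by 0.73 and the small heat shock gene Hspb1 by 1.27 (adjusted p = 0.0674 without the mouse term), while Fos did not pass (-0.02, adjusted p = 0.893). Of 23 interferon-induced genes 8 rose and 1 fell, 0 and 0 without the mouse term, 5 rose without MKL347 or without the Mex3a- Lgr5+ array of MKL367; Usp18 differed by 1.80 and Oasl2 by -1.04 (adjusted p = 0.0697 and 0.148 without the mouse term). Of 29 BMP and TGF-beta genes 7 rose and 2 fell, 2 and 0 without the mouse term and 3 and 0 without MKL347, with the ligand gene Bmp7 at 1.17 (0.0948 without the mouse term) and Ltbp3 at 0.97. Of 17 EGF receptor ligand and feedback genes 4 rose and 5 fell, 3 and 0 without the mouse term, and 1 fell without MKL347 or MKL367 or either of their Mex3a+ Lgr5+ arrays, and 2 without either of their Mex3a- Lgr5+ arrays. The ligand gene Btc was at 0.77 and the phosphatase gene Dusp4 at 0.69. Of 18 Notch and fate genes 3 fell, 0 without the mouse term, 1 without MKL347, its Mex3a+ Lgr5+ array or the Mex3a- Lgr5+ array of MKL367, and 3 rose beside 3 falls with quantile normalization. Of 25 junction genes 8 fell and 2 rose (4 and 1 without the mouse term), with the claudin genes Cldn15 at -1.33 and Cldn4 at 0.61. Of 16 fetal and injury-type genes 4 fell and 3 rose (1 and 2 without the mouse term, 5 rose without the Mex3a+ Lgr5+ array of MKL367), with Anxa1 at -1.05 (adjusted p = 0.093 without the mouse term) and Ccn1 at 1.05. Of 14 Eph receptor and ephrin genes 2 rose and 4 fell, 0 and 1 without the mouse term, and between 1 and 2 fell without either of MKL347 and MKL367 or without any of 4 arrays. Of 27 genes of the unfolded protein response 2 rose and 1 fell, 0 and 0 without the mouse term and 2 and 4 with median centring. Of 13 RNA-binding protein genes related to Mex3a, 2 rose, Msi1 and Mex3a itself, and Mex3c fell (-0.40, adjusted p = 0.0207, and between 0.0503 and 0.236 without MKL358, MKL347 or any of their arrays).

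Among lists of other cell types, no tested gene was called for enteroendocrine cells (13 tested), lymphocytes (8), red blood cells (4) or mast cells (1). Over all genes tested, 8.84% were higher and 13.2% lower. Tuft cells had 1 higher of 11 (0 without the mouse term, and 2 without MKL358, without the Mex3a+ Lgr5+ array of MKL367 or with quantile normalization). Paneth-type cells had 2 higher of 7, but 0 without the mouse term, with mouse as a random effect or without MKL358, 1 without MKL347 or any array of MKL358 or MKL347, and 3 with MKL367 or its Mex3a+ Lgr5+ array left out. Endothelium had 2 higher of 17, with the receptor gene Flt1 at 0.98, but 1 without the mouse term, MKL347, MKL367, either array of MKL358 or the Mex3a- Lgr5+ array of MKL347 or MKL367, and 3 with the Mex3a+ Lgr5+ array of MKL367 left out. Glia and neurons had 2 higher and 1 lower of 5, with 0 higher without MKL347 and 1 without the mouse term, MKL358, MKL367 or any array other than that of Mex3a+ Lgr5+ cells of MKL358. The 3 falls among 17 myeloid genes (2 without the mouse term) included the protease gene Ctss, at 6.85, 6.18 and 6.44 in Mex3a+ Lgr5+ cells, against 8.32, 8.47 and 8.10 in Mex3a- Lgr5+ cells (3.50-fold lower, adjusted p = 7.38e-05), and Cd14 (-0.94). Of 10 neutrophil genes Lcn2 rose and 3 fell, 0 of them without the mouse term, without the array of MKL358 of either group or without the Mex3a- Lgr5+ array of MKL367, and 1 without MKL358 or MKL367. This number was 5 with the Mex3a- Lgr5+ array of MKL347 or the Mex3a+ Lgr5+ array of MKL367 left out.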
